A study of Homo sapiens with 16 samples.

Results

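The GATA3 locus was followed across an ATAC-seq study as the 400 kb window chr10:8050000-8450000 (hg19). The window holds GATA3 and the sequence downstream of it, to beyond the T-cell enhancer about 280 kb away. Peaks of all libraries that shared at least 1 base were merged, and the window held 23 of the 131357 merged regions of the genome, built from 195 of 586088 peaks. ATAC-seq marks open chromatin by letting the Tn5 transposase insert adapters where DNA is accessible. The 16 libraries came from DND41 and MOLT4, long-established lines grown from human T-cell acute lymphoblastic leukaemia, exposed to ACBI-1 at 100 nM or to its vehicle DMSO and harvested after 3 h or 24 h. ACBI-1 is a bifunctional degrader that brings SMARCA2, SMARCA4 and PBRM1, subunits of SWI/SNF chromatin remodelling complexes, to the ubiquitin system for destruction. The 8 groups were DND41 with DMSO at 3 h, DND41 with DMSO at 24 h, DND41 with ACBI-1 at 3 h, DND41 with ACBI-1 at 24 h and the same 4 conditions in MOLT4, with 2 libraries in each. Both lines are leukaemic and long in culture, which limits them as models of normal T cells. The labels do not state whether the libraries of a group are separate cultures, so every p below is set against a spread that may be technical only.

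Across the genome the lists held 39117 to 46712 peaks with DMSO and 26145 to 33870 with ACBI-1. Groups follow the sample titles; the cell line field names the other line in 8 of 16 samples, while the line code in the peak names and the nearest library by shared regions follow the title in 16 of 16. The tag in the peak names is p03 for all 24 h libraries and p04 for all 3 h libraries, so time and whatever the tag stands for cannot be told apart. Read depth is unknown, and the part of depth in the lengths of the lists was not tested. Defining markers of the lines were not checked here, since no gene positions on hg19 were used.

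GATA3 encodes a zinc-finger transcription factor that binds GATA sequences. It is needed for the earliest steps of T-cell development in the thymus and later for the T helper type 2 fate, and it stays expressed in much of T-cell leukaemia. Its gene sits at the edge of a long stretch without other protein-coding genes, and enhancers far downstream drive it in T cells. SWI/SNF complexes use ATP to slide or evict nucleosomes, and many enhancers need them to stay open. In the RefSeq gene order on GRCh38.p14, TAF3 is the neighbouring protein-coding gene before GATA3 and CELF2 the one after it. Between GATA3 and CELF2 lie 27 genes that are not protein-coding, and the antisense gene GATA3-AS1 overlaps GATA3.

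RefSeq on GRCh38.p14 lists 6 starts for GATA3 (gene ID 2625), numbered here along the plus strand. Coordinates were not carried from one build to the other; only distances were compared, with start 5 set at the region chr10:8096302-8096990 of hg19. That placing is a working assumption, and all distances below are counted in kb from the middle of this region, which is called the promoter region. Start 4 lies at -1047 bases from start 5, and the nearest region at -1038 bases from the promoter region. Start 1 lies at -9355 bases, beside a region at -9394 bases, and start 6 at +5769 bases, beside a region at +5658 bases. By this spacing 3 of the other 5 starts fall inside a region, and starts 2 and 3, at -4834 and -3452 bases, fall in none. The 300 bases around the 4 starts that pair with a region are shown, because starts 4 and 5 pair with regions open in all libraries and starts 1 and 6 with regions missing from some ACBI-1 libraries. They run from chr10:8045083-8045382, chr10:8053391-8053690, chr10:8054438-8054737 and chr10:8060207-8060506 (GRCh38.p14, plus strand), each holding 250 bases before the start and 50 after. Capitals mark matches on either strand to CCGCCC (the GC box of SP and KLF factors), CTTTGA (TCF and LEF factors) and CAGCTG (an E-box).
GATA3 start 1: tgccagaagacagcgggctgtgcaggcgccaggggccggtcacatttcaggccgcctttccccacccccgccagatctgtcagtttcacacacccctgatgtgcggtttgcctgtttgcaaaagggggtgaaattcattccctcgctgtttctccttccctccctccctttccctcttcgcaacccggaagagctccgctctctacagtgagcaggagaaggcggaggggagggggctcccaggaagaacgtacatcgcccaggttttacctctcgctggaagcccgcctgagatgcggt
GATA3 start 4: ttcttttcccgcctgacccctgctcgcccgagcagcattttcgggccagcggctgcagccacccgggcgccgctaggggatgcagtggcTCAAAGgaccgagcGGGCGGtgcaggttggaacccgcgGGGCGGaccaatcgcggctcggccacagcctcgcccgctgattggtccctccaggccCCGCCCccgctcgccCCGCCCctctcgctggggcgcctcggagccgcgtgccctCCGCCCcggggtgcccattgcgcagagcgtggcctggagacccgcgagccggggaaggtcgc
GATA3 start 5: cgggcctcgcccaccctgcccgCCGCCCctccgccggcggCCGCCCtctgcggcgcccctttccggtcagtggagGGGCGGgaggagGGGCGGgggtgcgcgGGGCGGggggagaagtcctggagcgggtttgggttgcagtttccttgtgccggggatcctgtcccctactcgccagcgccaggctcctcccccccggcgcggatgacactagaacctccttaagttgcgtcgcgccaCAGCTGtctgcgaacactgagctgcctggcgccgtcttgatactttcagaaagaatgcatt
GATA3 start 6: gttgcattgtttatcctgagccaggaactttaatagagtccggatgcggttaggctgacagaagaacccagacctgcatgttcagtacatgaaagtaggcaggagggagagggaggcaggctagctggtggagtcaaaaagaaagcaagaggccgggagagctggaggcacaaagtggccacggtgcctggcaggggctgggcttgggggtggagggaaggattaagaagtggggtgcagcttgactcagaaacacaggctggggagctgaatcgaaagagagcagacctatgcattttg

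Starts 4 and 5, which by spacing lie in the pair of regions open in every library, were rich in GC boxes. Each held 5 CCGCCC matches, beside 1 CTTTGA match at start 4 and 1 CAGCTG match at start 5, and no matches overlapped. Their GC content was 74.7% and 69.3%, and they held 36 and 29 CpG dinucleotides. The 300 bases of start 4 also overlap all 3 RefSeq promoters of GATA3-AS1, so they do not belong to GATA3 alone. Starts 1 and 6, at 60.7% and 54.3% GC with 16 and 5 CpG, held none of the motifs searched. Starts 2 and 3, which by spacing fall in no region, held 2 and 1 CCGCCC matches at 62% and 63% GC, so the GC box was not limited to starts in a region. The median GC content of the 35116 RefSeq promoters of this length was 58.7%, and 45.0% of them hold CCGCCC, 12.9% hold CTTTGA and 17.9% hold CAGCTG. The other motifs searched on both strands were AGATAA (bound by factors of the GATA family, in 10.3% of promoters), TGTGGT (RUNX, 13.1%), GGAAGT (ETS, 22.8%), CAGGTG (E proteins, 20.6%) and TGGGAA (RBPJ, 24%), and none of these was in the 4 sequences shown. Start 3 held 1 match each to the RUNX, ETS and RBPJ motifs. A match is only a string of letters, and its absence covers these 300 bases alone.

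The window held fewer peaks with ACBI-1 in both lines and at both times. In DND41 the DMSO libraries held 16 and 16 peaks at 3 h and 15 and 15 at 24 h, and the ACBI-1 libraries held 9 and 7 at 3 h and 8 and 7 at 24 h. In MOLT4 the DMSO libraries held 18 and 16 peaks at 3 h and 16 and 16 at 24 h, and the ACBI-1 libraries held 9 and 11 at 3 h and 8 and 8 at 24 h. The lowest DMSO library, at 15 peaks, stood above the highest ACBI-1 library, at 11. The means were 16 ± 0.926 and 8.38 ± 1.30 peaks (SD, n = 8 libraries per arm), a difference of -7.625 peaks or -47.7%. Exchanging the treatment labels within each line and time, in an exact permutation test (two-sided), gave a p of 0.00154, the smallest these exchanges allow. The Benjamini-Hochberg adjusted p over 6486 windows of the same size was 0.0121. Fewer peaks with ACBI-1 were called in 39.3% of those windows and more in 0.0308%, and in 2.36% every ACBI-1 library was below every DMSO library. When each list was cut to its 25000 widest peaks, so that all lists had one length, the difference was -2.625 peaks with an adjusted p of 0.185. The unadjusted p of the same exact test was 0.0139, and in that run 0 of 5649 windows were called lower and 0 higher. In bulk libraries, fewer cells with an open site and a weaker opening in each cell cannot be told apart.

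**Figure D1:**
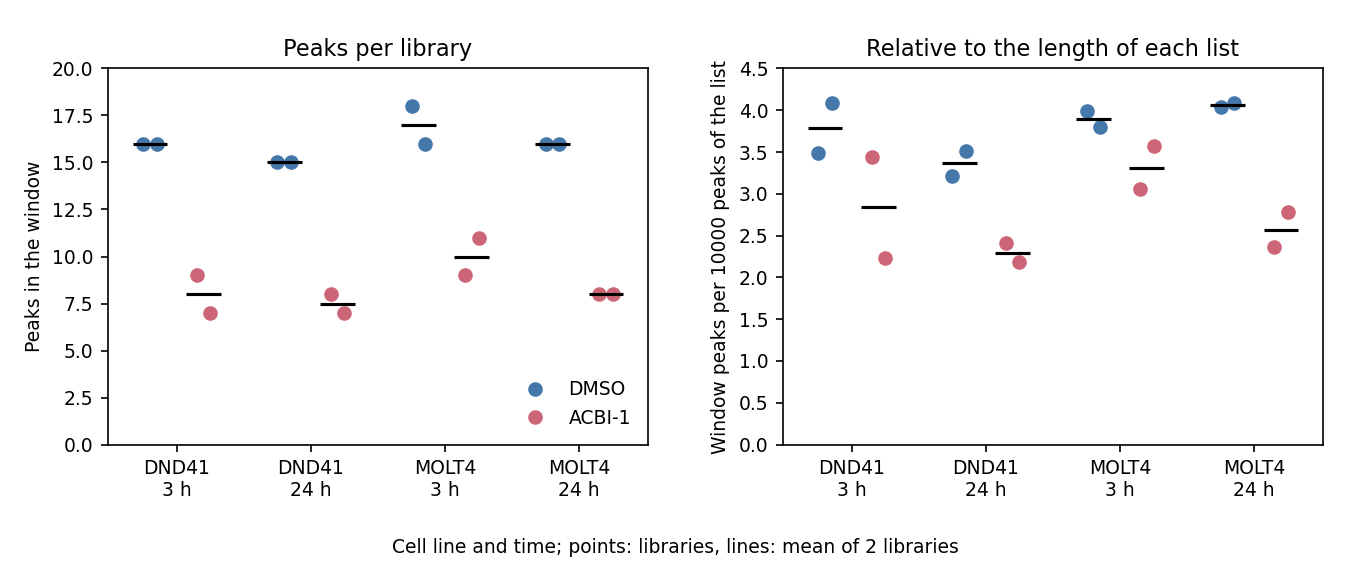
Peaks in the GATA3 window (vertical axis, number per library) for each line, time and treatment, with a point for each library and a bar for the mean of each pair. The DMSO libraries sit between 15 and 18 peaks and the ACBI-1 libraries between 7 and 11.

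In DND41 the mean peak number fell by 50% at 3 h and fell by 50% at 24 h. In MOLT4 it fell by 41.2% at 3 h and fell by 50% at 24 h. The effect differed by 0.25 peaks between the lines and by -0.25 peaks between the times, each with an exact permutation p of 1.0 (two-sided). Over all 6486 windows no difference in effect was called for either (0.0%). These tests exchanged the labels of line, or of time, within the other factors. A difference by line or time that both treatments share therefore enters the spread that the effect is set against. At an unadjusted p under 0.05 the effect was lower in MOLT4 in 38 windows and higher in 99, and lower at 24 h in 35 and higher in 160. Bases under peaks fell as well, from 6230 ± 1049 (4579 to 8083) to 3349 ± 725 (2511 to 4667; SD, n = 8 libraries per arm), and here the lowest DMSO library was below the highest ACBI-1 library. The difference of -2881 bases had an adjusted p of 0.00749 by the same exact permutation test, with 59.5% of windows called lower and 0.123% higher, and 3.59% had all ACBI-1 libraries below all DMSO libraries.

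The share of the peak list that fell in the GATA3 window was lower with ACBI-1 as well. The window held 3.78 ± 0.335 of every 10000 peaks with DMSO (3.21 to 4.09) and 2.75 ± 0.548 with ACBI-1 (2.18 to 3.57; SD, n = 8 libraries per arm), and the groups overlapped, as they did in all but 0.216% of windows in this direction. The difference of -1.02 peaks per 10000 gave an adjusted p of 0.0305 by the exact permutation test, where 4.9% of windows were called lower and 4.93% higher. That call did not hold when either DND41 DMSO library of 3 h or either MOLT4 DMSO library of 3 h was left out (exact permutation, adjusted p of 0.0552 to 0.0647). With the 25000 widest peaks all lists have one length. There the difference of -1.05 per 10000 (exact permutation, adjusted p = 0.185) only repeats the test of peak number at that setting. The median window fell by 27.6% in peaks, and 13.5% of windows fell by a larger percentage than the GATA3 window. With DMSO the GATA3 window was among the richer ones, as 96.1% of windows held fewer peaks and the median held 5.5.

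**Figure D2:**
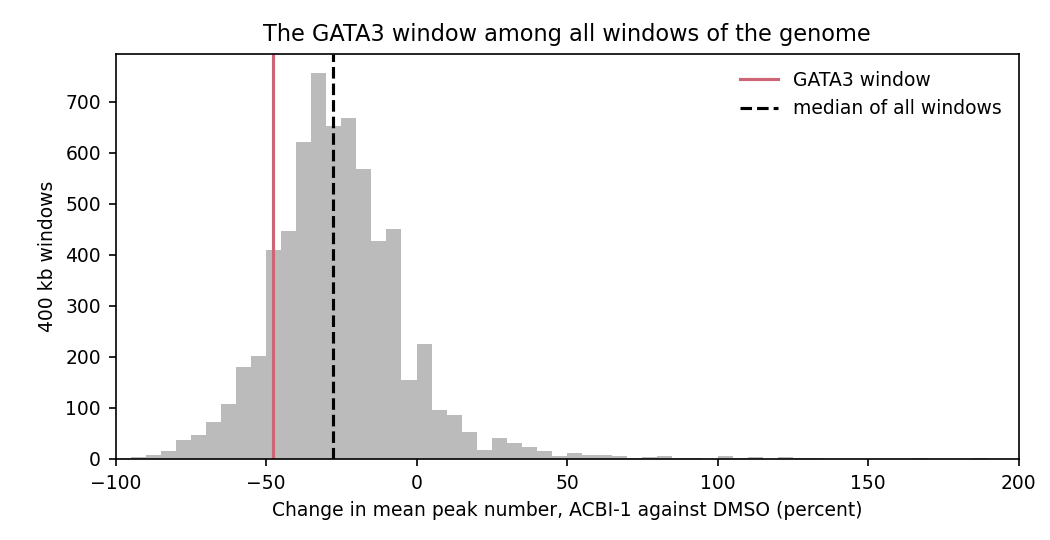
Number of 400 kb windows (vertical axis) by the change in mean peak number with ACBI-1 against DMSO (horizontal axis, percent), over windows with a mean of at least 1 peak in a library. The GATA3 window, at -47.7%, lies left of the median window at -27.6%, and 13.5% of windows lie further left.

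The 23 regions fell into a promoter and gene-body group of 5 (-9.4 to +6.8 kb), 5 scattered regions from +48.5 to +176.4 kb, a group of 3 from +181.2 to +190.9 kb, a pair at +244.5 and +261.2 kb, and 8 regions from +276.9 to +350.2 kb. Of them 4 were open in all 16 libraries, at -1.0, 0, +190.9 and +277.7 kb. Only 2 were seen in 1 library, or 8.7%, against 51.0% of regions across the genome. Peaks were in more DMSO than ACBI-1 libraries at 16 regions, in equal numbers at 6 and in more ACBI-1 libraries at 1, which was a peak in 1 library at +181.2 kb. Among the 19 regions with a peak in at least 4 libraries, 13 were in more DMSO libraries, against 55.0% of such regions across the genome, and 5 were in DMSO libraries alone, against 9.28%. Of 9 regions present in all 8 DMSO libraries 4 were present in all 8 ACBI-1 libraries, where the genome's share was 65.1%.

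**Figure D3:**
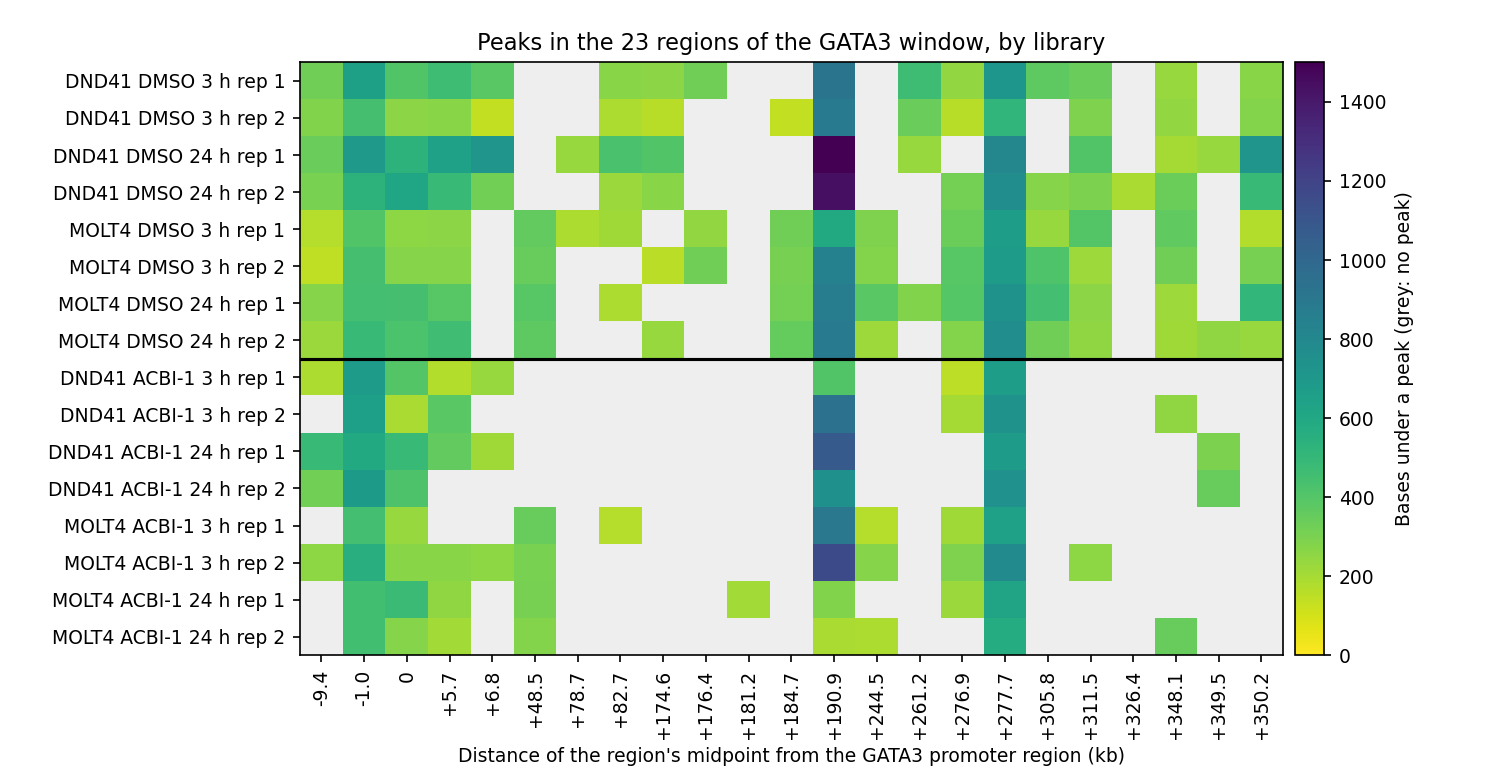
Peaks of each library (rows, by line, time and treatment) along the GATA3 window (horizontal axis, distance from the promoter region in kb). All libraries have peaks at -1.0, 0, +190.9 and +277.7 kb, and from +305.8 kb on the DMSO libraries hold most of the peaks.

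At the promoter both regions stayed called after ACBI-1. The region at -1.0 kb (chr10:8095240-8095976) shares 404 bases among all 16 libraries, and the promoter region (chr10:8096302-8096990) shares 162. In the -1.0 kb region the peak of DND41 spanned 648 and 445 bases with DMSO and 672 and 654 with ACBI-1 at 3 h, and 686 and 529 with DMSO and 586 and 682 with ACBI-1 at 24 h. In MOLT4 it spanned 410 and 440 bases with DMSO and 451 and 553 with ACBI-1 at 3 h, and 448 and 491 with DMSO and 454 and 457 with ACBI-1 at 24 h. The treatment groups overlapped, at 512.1 ± 102.6 and 563.6 ± 100.4 bases (SD, n = 8 libraries per arm), and the log2 difference of widths was 0.14 with an exact permutation p of 0.144 and an adjusted p of 0.331. The promoter region spanned 401.2 ± 132.2 bases with DMSO and 342.9 ± 116.3 with ACBI-1 (SD over 8 libraries each), a log2 difference of -0.23 with an adjusted p of 0.378 in the same exact test. It was among the narrower of the regions open everywhere: 5.31% of the 12037 such regions had a narrower mean.

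The 3 regions flanking the promoters were each without a peak in some libraries, and none could be tested for treatment. The region at -9.4 kb (chr10:8086993-8087512) had a peak in 8 of 8 DMSO libraries and in 4 of 8 with ACBI-1, of which 3 were DND41. The region at +5.7 kb (chr10:8101975-8102633), by spacing near start 6, had a peak in 8 DMSO and 6 ACBI-1 libraries. The region at +6.8 kb (chr10:8103062-8103780) is a DND41 site in the main, with peaks in 4 of 4 DND41 DMSO libraries, in 2 of 4 with ACBI-1 and in 1 MOLT4 library.

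The far enhancer at +277.7 kb (chr10:8373953-8374806), at the distance given for the T-cell enhancer, kept its peak in every library. Its peak in DND41 spanned 709 and 512 bases with DMSO and 663 and 737 with ACBI-1 at 3 h, and 804 and 764 with DMSO and 668 and 744 with ACBI-1 at 24 h. In MOLT4 it spanned 662 and 671 with DMSO and 642 and 788 with ACBI-1 at 3 h, and 735 and 766 with DMSO and 624 and 573 with ACBI-1 at 24 h. At 24 h each ACBI-1 library was below both DMSO libraries of its line, and at 3 h the treatments overlapped in both lines. How many other regions open in all libraries show this order was not counted. The mean width was 702.9 ± 91.13 bases with DMSO and 679.9 ± 71.18 under ACBI-1 (SD, n = 8 libraries per arm), a log2 difference of -0.04 with an exact permutation p of 0.651 and an adjusted p of 0.796. The effect on width at 24 h minus that at 3 h was -0.39 on the log2 scale, with an exact permutation p of 0.017 and an adjusted p of 0.987, a contrast added after the data had been seen. Beside it, at +276.9 kb (chr10:8373363-8373773), 179 bases away, a smaller region of 411 bases had a peak in 7 DMSO and 5 ACBI-1 libraries, and its presence could not be tested.

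The region at +190.9 kb (chr10:8286720-8288273) is the broadest of the window, at 1554 bases, and in 5 libraries it was called as 2 peaks. In DND41 its peaks covered 923 and 874 bases with DMSO and 405 and 933 with ACBI-1 at 3 h, and 1497 and 1439 with DMSO and 1078 and 749 with ACBI-1 at 24 h. In MOLT4 they covered 588 and 840 with DMSO and 898 and 1166 with ACBI-1 at 3 h, and 862 and 885 with DMSO and 283 and 190 with ACBI-1 at 24 h. At 24 h the 4 ACBI-1 libraries were each below the DMSO libraries of their line, and at 3 h the MOLT4 ACBI-1 libraries were above theirs. The share of regions open in all libraries with either order was not counted. Over both times the cover was 988.5 ± 313.5 bases with DMSO and 712.8 ± 373.3 under ACBI-1 (SD, n = 8 libraries per arm). The log2 difference of -0.66 gave an exact permutation p of 0.0802 and an adjusted p of 0.238, and its difference between times, -1.31, gave p of 0.108 and an adjusted p of 1.0. No base of this region was under a peak in all 16 libraries.

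Over the 4 regions open everywhere, no change of width with ACBI-1 was called by the exact permutation test, and none stood at an unadjusted p under 0.05 (0 of 4). Narrowing was called in 3.25% of the 12037 regions and widening in 0.0166%. Over the whole list of each MOLT4 library, the median peak width was 443 and 427 bases with DMSO and 357 and 399 with ACBI-1 at 24 h. At 3 h these medians were 318 and 341 with DMSO and 347 and 377 with ACBI-1. In DND41 they were 348 and 360 with DMSO and 347 and 361 with ACBI-1 at 24 h. At 3 h the DND41 medians were 328 and 282 with DMSO and 319 and 370.5 with ACBI-1. The promoter region differed by time, being wider at 24 h by 0.70 on the log2 scale (exact permutation p = 0.00154, adjusted p = 0.0157). A difference by time in either direction was called in 30.9% of regions, and this contrast too was added after the data had been seen. Its width ran from 190 to 407 bases at 3 h and from 274 to 616 at 24 h.

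**Figure D4:**
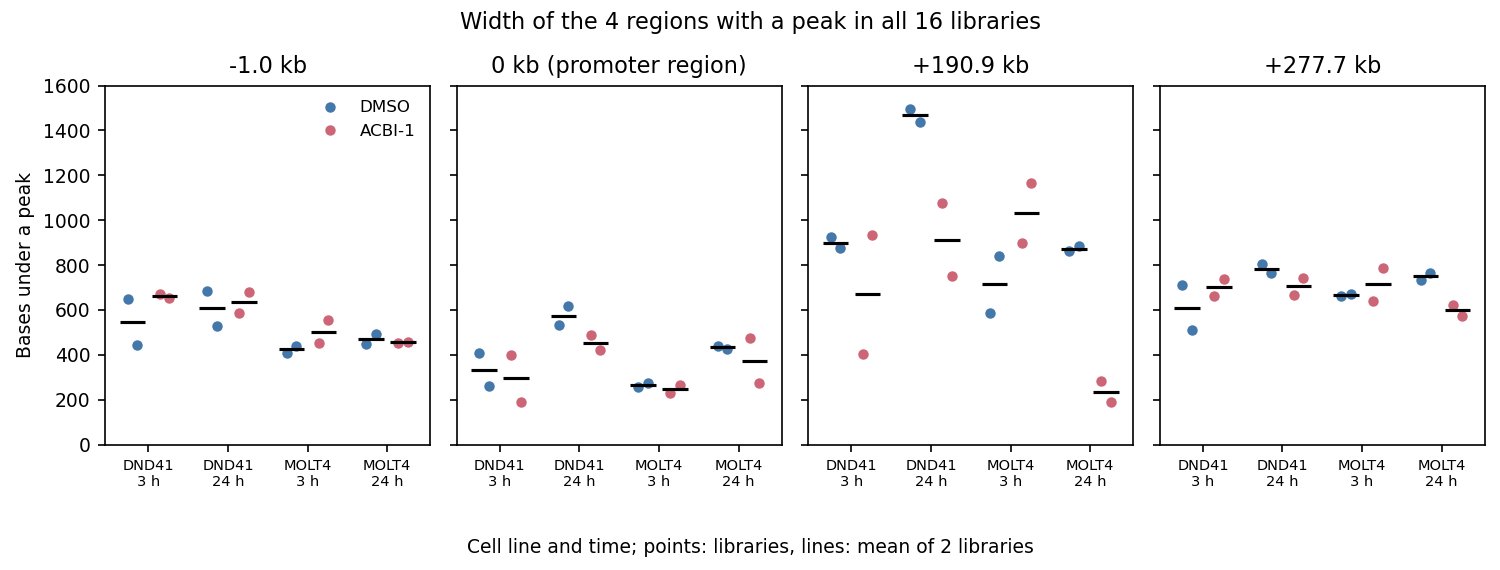
Bases under peaks (vertical axis) at the 4 regions open in all 16 libraries, with a point for each library by line, time and treatment. At +190.9 kb the MOLT4 ACBI-1 libraries of 24 h lie lowest, at 283 and 190 bases. Taken over both lines and times, the points at -1.0, 0 and +277.7 kb overlap between treatments, though not within every line and time.

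The sites most often without a peak after ACBI-1 lay away from the promoters. At +350.2 kb (chr10:8446533-8447259) the DMSO peaks of DND41 spanned 266 and 276 bases at 3 h and 719 and 482 at 24 h, those of MOLT4 spanned 171 and 310 at 3 h and 509 and 232 at 24 h, and no ACBI-1 library had a peak. This 8 against 0 pattern was shared by 209 of the 131357 regions of the genome. It depends on how peaks were merged, as the region at +349.5 kb lies 151 bases away. There both DND41 ACBI-1 libraries of 24 h had a peak, of 298 and 351 bases, as did 1 DND41 and 1 MOLT4 DMSO library. With peaks joined within 250 bases, presence at +350.2 kb differed by -0.75 (exact permutation, adjusted p = 0.0506). At +311.5 kb (chr10:8407941-8408406) all 8 DMSO libraries had a peak, for DND41 of 342 and 290 bases at 3 h and 409 and 296 at 24 h, for MOLT4 of 404 and 220 at 3 h and 258 and 251 at 24 h, and the only ACBI-1 peak was 252 bases in MOLT4 at 3 h. At +348.1 kb (chr10:8444485-8444960) all 8 DMSO libraries had a peak of 202 to 367 bases, and 2 ACBI-1 libraries had one, one a DND41 library of 3 h with 247 bases and one a MOLT4 library of 24 h with 347. The regions at +174.6 kb (chr10:8271082-8271490) and +305.8 kb (chr10:8402224-8402674) were each in 6 DMSO and 0 ACBI-1 libraries. At +174.6 kb the DMSO peaks were in 4 DND41 and 2 MOLT4 libraries, and at +305.8 kb in 2 DND41 and 4 MOLT4 libraries.

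These 5 were the regions called for treatment, of 7 whose presence could reach the threshold, and all 5 were lower with ACBI-1. Across the genome 27.9% of the 8082 regions tested were called lower and 0.111% higher. As a share of libraries, presence differed by -1.0 at +350.2 kb and by -0.875 at +311.5 kb (adjusted p = 0.0442 for both, exact permutation). It differed by -0.75 at the other 3 (adjusted p = 0.0497 for each, exact permutation). The calls sit near the threshold. With the 25000 widest peaks of each list 0 were called, as were 0 of the 4260 regions tested across the genome. Leaving out any 1 library left 0 to 3 of them, and 0 without DND41 DMSO 3 h replicate 1, DND41 ACBI-1 3 h replicate 1, any 1 DND41 or MOLT4 ACBI-1 library of 24 h, or MOLT4 DMSO 3 h replicate 2. In each of the runs that left 0, no region of the genome was called either, of 9070 to 9921 tested. The regions at +184.7 kb (chr10:8281090-8281517; 5 DMSO and 0 ACBI-1 libraries, adjusted p = 0.0573) and +82.7 kb (chr10:8179178-8179608; 6 and 1, adjusted p = 0.11) were not called by the same exact test. The remaining regions were too sparse or too even to be tested for treatment: +261.2 kb (chr10:8357625-8358133) was in 4 DMSO libraries, 3 of them DND41, and +349.5 kb (chr10:8445833-8446381) was in 2 DMSO and 2 ACBI-1 libraries, all of 24 h. The 4 regions seen in fewer than 4 libraries, at +78.7, +176.4, +181.2 and +326.4 kb, had peaks in 1 to 3 libraries. By 50 kb steps, the last one, chr10:8400001-8450000, held 3 to 5 peaks with DMSO and 0 to 1 with ACBI-1, a mean of 4.125 against 0.625. Its exact permutation p was 0.00154, the smallest the exchanges allow. The adjusted p of 0.0713 was thus the lowest that any step had, and no step could be called. Of the 5 steps tested 0 were called, and across the genome 0 of 15153 (0.0%). An unadjusted p under 0.05 was seen in 3 of the 5. At that limit 3151 of the 15153 steps of the genome were lower with ACBI-1 and 11 higher.

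**Figure D5:**
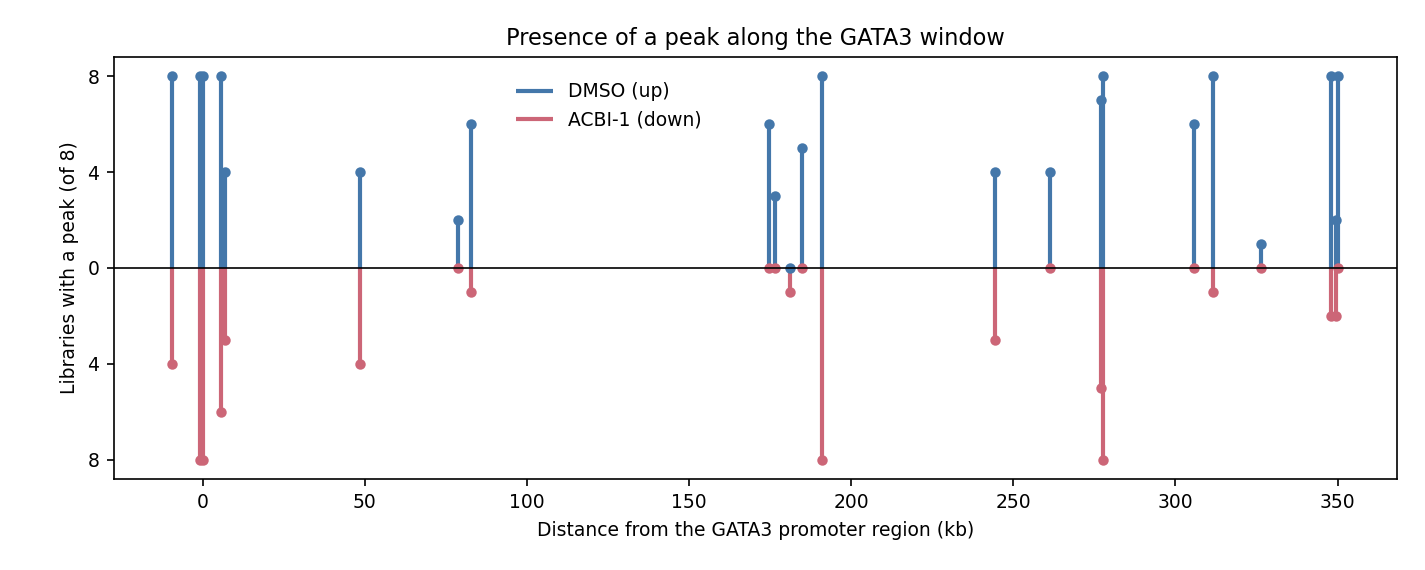
Libraries with a peak (vertical axis, of 8, DMSO upward and ACBI-1 downward) at each of the 23 regions by distance from the promoter region (horizontal axis, kb). At +350.2 kb the count is 8 with DMSO and 0 with ACBI-1, while at 0, +190.9 and +277.7 kb it is 8 in both.

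Between the gene and the far enhancer, 2 regions were called for line. The region at +48.5 kb (chr10:8144962-8145389) was open in all 8 MOLT4 libraries and in 0 of 8 DND41 libraries, a pattern held by 1241 regions of the genome. In MOLT4 it spanned 360 and 349 bases with DMSO and 348 and 302 with ACBI-1 at 3 h, and 392 and 374 with DMSO and 308 and 276 with ACBI-1 at 24 h, or 368.8 ± 18.57 against 308.5 ± 29.77 (SD, n = 4 libraries each). The widest ACBI-1 peak was 1 base short of the narrowest DMSO peak, and the width was not tested, since the regions tested for width had a peak in every library. How many other regions show such a separation was not counted. In MOLT4 the whole-list medians given above were also lower with ACBI-1 at 24 h, and were higher at 3 h. The region at +244.5 kb (chr10:8340877-8341467) was in 7 of 8 MOLT4 and 0 of 8 DND41 libraries. Of 3 regions that could reach the threshold for line, these 2 were called, both higher in MOLT4, with adjusted p of 0.0111 and 0.0184 by the exact permutation test, beside 40.8% of regions called higher and 23.3% lower in MOLT4. The other, at +6.8 kb and in 6 DND41 and 1 MOLT4 libraries, had an adjusted p of 0.0906.

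The -1.0 kb promoter region was narrower in MOLT4, by 0.40 on the log2 scale (24%), with an exact permutation p of 0.00154 and an adjusted p of 0.0308, while 3.12% of regions were called narrower and 6.16% wider. Its widths overlapped between lines, from 445 to 686 bases in DND41 and from 410 to 553 in MOLT4. The call was lost without DND41 ACBI-1 3 h replicate 1 or any 1 of the 4 MOLT4 DMSO libraries. The number of peaks in the window was 11.6 ± 4.21 in DND41 and 12.8 ± 4.17 in MOLT4 (SD, n = 8 libraries per arm), a difference of 1.125 with an adjusted exact permutation p of 0.065 (0.0321 without DND41 ACBI-1 24 h replicate 1 and 0.0332 without MOLT4 DMSO 3 h replicate 2), where 19.2% of windows were called higher in MOLT4 and 18.8% lower. By time the window held 12.8 ± 4.20 peaks at 3 h and 11.6 ± 4.17 at 24 h (SD over 8 libraries each), a difference of -1.125 with an adjusted p of 0.336, and no window was called (0.0%). Before adjustment the exact test put 414 windows lower and 470 windows higher at 24 h, at p under 0.05. The SDs of peak number by line and by time hold both treatments, while the tests exchanged labels within a treatment. Within a line and treatment the SD was 0.577 to 1.41 peaks (n = 4 libraries each).

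Across the 16 libraries the peak number of the GATA3 window ran most closely with that of chr2:136450001-136850000 (Pearson's r = 0.948), chr5:134450001-134850000 (0.939) and chr9:92050001-92450000 (0.938). These windows held 13.4, 10.8 and 15.6 peaks with DMSO and 8.5, 5.12 and 7.75 with ACBI-1. The points share their libraries and the lengths of their lists, so the coefficients are a description only.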

How the data were processed

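The authors deposited 1 peak list per library, with 4 columns for a peak's chromosome, start, end and name. The deposited values used here are positions, with no peak height, and peaks of a library did not overlap. Bowtie2, Picard, SAMtools, MACS2 2.1.1.2016030 and hg19 are named per the submitters' processing notes; their roles and settings are not given in the sources used here. Only chromosomes 1 to 22 and X were used, which dropped 947 peaks. Positions are hg19, counted from 1. A peak belonged to the window that held its midpoint. The comparison set was every 400 kb window with a mean of at least 1 peak in a library, each 50 kb bin with the same mean, and each merged region whose margins could give p of 0.05.

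Tests were two-sided exact permutation tests with labels exchanged only within the other factors, giving 1296 exchanges and a smallest p of 0.00154, and p-values were Benjamini-Hochberg adjusted over all features of a kind and called under 0.05 (Python 3.11.15, numpy 2.4.6, pandas 2.3.3; figures with matplotlib 3.10.9). Within 1 line or 1 time the smallest p is 0.0556, and within 1 pair of groups 0.333, so such subsets were not tested. On simulated data for the treatment comparison of windows (6486), none of 200 windows changed to 0.3 of their level was recovered, since a call needs at least 201 windows at the smallest p, and 76.0% of 2000 were, with 20 false calls. For single regions (131357), 80.3% of 2000 changed regions were recovered, with 6 false calls. These regions were set to a peak in nearly every DMSO library and in nearly no ACBI-1 library. The simulated fall of windows was deeper than that of the GATA3 window (-47.7%), and no difference in list length between treatments was put in. Recovery of smaller changes was not simulated. Regions with a peak in at least 4 libraries or a call are named with their position. Alternatives were a minimum width of 200 bases, the 25000 widest peaks, peaks shared with another library, joining within 250 bases, a window longer by 100 kb on each side, no filter, a replicate block and each library left out. The window, regions and lists were chosen with earlier results of these data known. Promoter sequences are RefSeq's, on GRCh38.p14. Sequences of the enhancers were not used here.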

Additional observations from a re-analysis of the deposited data

How the results depend on the processing

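The lower bases under peaks with ACBI-1 held in every alternative run, from -3570 to -1692 bases with adjusted p of 0.00625 to 0.0361, and the lower peak number held in all but 1 of them. With the 25000 widest peaks of each list, the treatment difference was -2.625 peaks (adjusted p = 0.185, exact permutation) and -1.05 peaks per 10000 (adjusted p = 0.185), the line difference turned to -0.375 peaks (adjusted p = 0.894), 0 regions were called for treatment and 1 for line; this setting gives every list one length and drops the narrower peaks, more of them from the longer DMSO lists. With peaks of at least 200 bases 2 regions were called for treatment, beside 607 lower and 1 higher of 6530 across the genome. In that run the difference between times turned to 0.5 peaks (adjusted p = 0.994, exact permutation). Joining peaks within 250 bases left 1 region called for treatment, beside 827 lower and 1 higher of 8105 across the genome. Testing all 131357 regions left 0 for treatment and 0 for line, in the window and in the genome. There more regions without a possible call entered the adjustment. With only peaks shared with another library the difference in effect between lines turned to -0.25. The cause of the other moves was not tested.

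Leaving out 1 library at a time gave -1.174 to -0.8712 peaks per 10000, 0 to 3 regions called for treatment, 2 to 3 for line, and 0 to 1 widths called for line. Across the genome 0 to 1110 regions were called lower for treatment in these runs, and 0 in each run that left 0 in the window. For line 2561 to 3384 regions of the genome were called lower in MOLT4 and 4737 to 5138 higher. Of widths 127 to 316 were called narrower in MOLT4 and 243 to 875 wider. The line difference ran from 0.875 to 1.375 peaks and passed the threshold in the runs given beside it, the difference in effect between lines from -0.25 to 0.75, and that between times from -0.75 to 0.25. The treatment differences in peaks and in bases kept their calls in all of these runs.

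Replicate numbers are shared between groups, but same-numbered libraries did not deviate together: the correlation of the difference between replicates 1 and 2 in DMSO and ACBI-1 was -0.0802 to 0.0194 over the 4 pairs of groups. With the replicate block the peaks per 10000 differed by -1.023 with an adjusted p of 0.0921 (exact permutation), and 0 of 6486 windows were called. For line 0 widths were called in the window and 0 of 12037 across the genome. The count of regions called for treatment stayed at 5, of 5 tested, beside 2260 lower and 10 higher of 3024 across the genome. The lists hold no read depth, so a peak that is missing and a peak just under the calling limit cannot be told apart.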
